A study of Mus with 6 samples.

Results

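Nuclear genes that control expression of the mitochondrial genome were followed in 4T1 cells, a mouse mammary carcinoma line, after exposure to isopimaric acid (IPA), a plant diterpene acid. The set comprised 9 of the 35304 Ensembl gene IDs in the deposited count table, chosen by ID: Tfam, Polrmt, Tfb2m, Polg, Twnk, Lrpprc, Slirp, Nrf1 and Ppargc1b. They were picked by gene identity, with earlier results of these data known. The IPA group held 3 samples given 10 µg/mL IPA for 24 h after overnight seeding in six-well plates, and the untreated group held 3 samples of the same line with no treatment, per the labels. All 6 samples were grown in RPMI medium with fetal bovine serum, and total RNA was extracted with Trizol. No vehicle is named for either group. Whether the replicates were separate cultures is not stated either, so the p-values below rest on a spread between libraries that may be technical. The series title names calcium and oxidative phosphorylation pathways, and the comparison asks whether the nuclear genes that maintain and express mitochondrial DNA differ with IPA.

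Mitochondrial DNA encodes core subunits of the respiratory chain together with the ribosomal and transfer RNAs needed to make them, whereas the proteins that copy and transcribe this DNA are encoded in the nucleus. TFAM, a DNA-binding protein that also packages mitochondrial DNA, and TFB2M act with the single-subunit polymerase POLRMT to start transcription at the promoters. POLG is the catalytic subunit of the replicative DNA polymerase, and Twinkle (Twnk) is its helicase. LRPPRC and SLIRP form a complex that protects mitochondrial mRNAs from decay. Nrf1, which encodes nuclear respiratory factor 1 and not the unrelated Nfe2l1, and the PGC-1 family coactivator encoded by Ppargc1b act in the nucleus on genes for mitochondrial proteins.

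The genes lie on 8 chromosomes of the mouse assembly GRCm38.p6, by a match of their symbols to RefSeq. The promoter-recognition and polymerase genes are Tfam (ENSMUSG00000003923) at chromosome 10, positions 71225468 to 71238328, Polrmt (ENSMUSG00000020329) at chromosome 10, positions 79736125 to 79746604, and Tfb2m (ENSMUSG00000026492) at chromosome 1, positions 179528052 to 179546305. Polg (ENSMUSG00000039176) spans positions 79446231 to 79467911 of chromosome 7, and Twnk (ENSMUSG00000025209) positions 45005663 to 45012764 of chromosome 19. Lrpprc (ENSMUSG00000024120) spans positions 84705247 to 84790786 of chromosome 17, and Slirp (ENSMUSG00000021040) positions 87443896 to 87449924 of chromosome 12. Nrf1 (ENSMUSG00000058440) spans positions 30047985 to 30153458 of chromosome 6, and Ppargc1b (ENSMUSG00000033871) positions 61291445 to 61400756 of chromosome 18. Some spans share bases with another annotated gene. Polg shares 4036 bases with Fanci, Twnk 780 with Mrpl43, and Slirp 122 with Nrp and 15 with Snw1. Ppargc1b shares 3940 bases with the lncRNA gene Gm46627, 1598 with the lncRNA gene Gm52354 and 66 with the microRNA gene Mir378a, and Polg shares 73 with a tRNA gene. The handling of strand is not given, so reads from such shared bases cannot be assigned to one gene with certainty. No other ID had counts within 2% of those of any of the 9 genes in every library.

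Library totals ran from 3410411 counts in IPA replicate 1 to 58924711 in untreated replicate 2. The 9 genes had 25 to 8128 counts per library and all passed the filter on low counts. Levels are given as CPM, the count scaled to its library's total. Untreated replicate 2 was unlike all the others: across genes its log2 CPM correlated with theirs at 0.779 to 0.811, while the remaining 5 correlated with each other at 0.922 to 0.987. Fold changes, ratios and counts of genes are therefore given with it and without it. The identity of the cells could not be checked against marker genes, because the tables used here pair no other ID with a symbol. In RNA from bulk cells, fewer cells with a transcript and less of it per cell cannot be told apart.

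Over all 6 libraries none of the 9 genes passed the test. Nor did any other tested ID, so a gene that did not pass there is not shown to be unchanged. The common biological coefficient of variation estimated by edgeR, a measure of spread between libraries of a group, was 0.57. Without untreated replicate 2 it was 0.178. Fitted log2 fold changes, IPA over untreated, ran from -0.74 for Slirp to 0.53 for Polrmt, with 5 genes above 0 and 4 below, where 45.5% of all tested IDs were above 0. The edgeR quasi-likelihood test called 0 of 9 at an adjusted p under 0.05, against 0% of all 24935 IDs called higher and 0% called lower, and 0 of 9 at an unadjusted p under 0.05, against 6.26% of all IDs. DESeq2 called 0 of 9 as well, against 0.119% of its tested IDs higher and 0.341% lower, and limma-voom called 0 of 9, against 0% in each direction. Their median log2 fold change was 0.06, against -0.08 for all tested IDs. Without untreated replicate 2, 1 gene of 9 was called higher, Lrpprc, against 1.26% of 25592 IDs, and 0 were called lower, against 2.2%. At an unadjusted p under 0.05 there were then 2 of 9, against 16.8% of all IDs, and the median was 0.13 against -0.04.

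**Figure D1:**
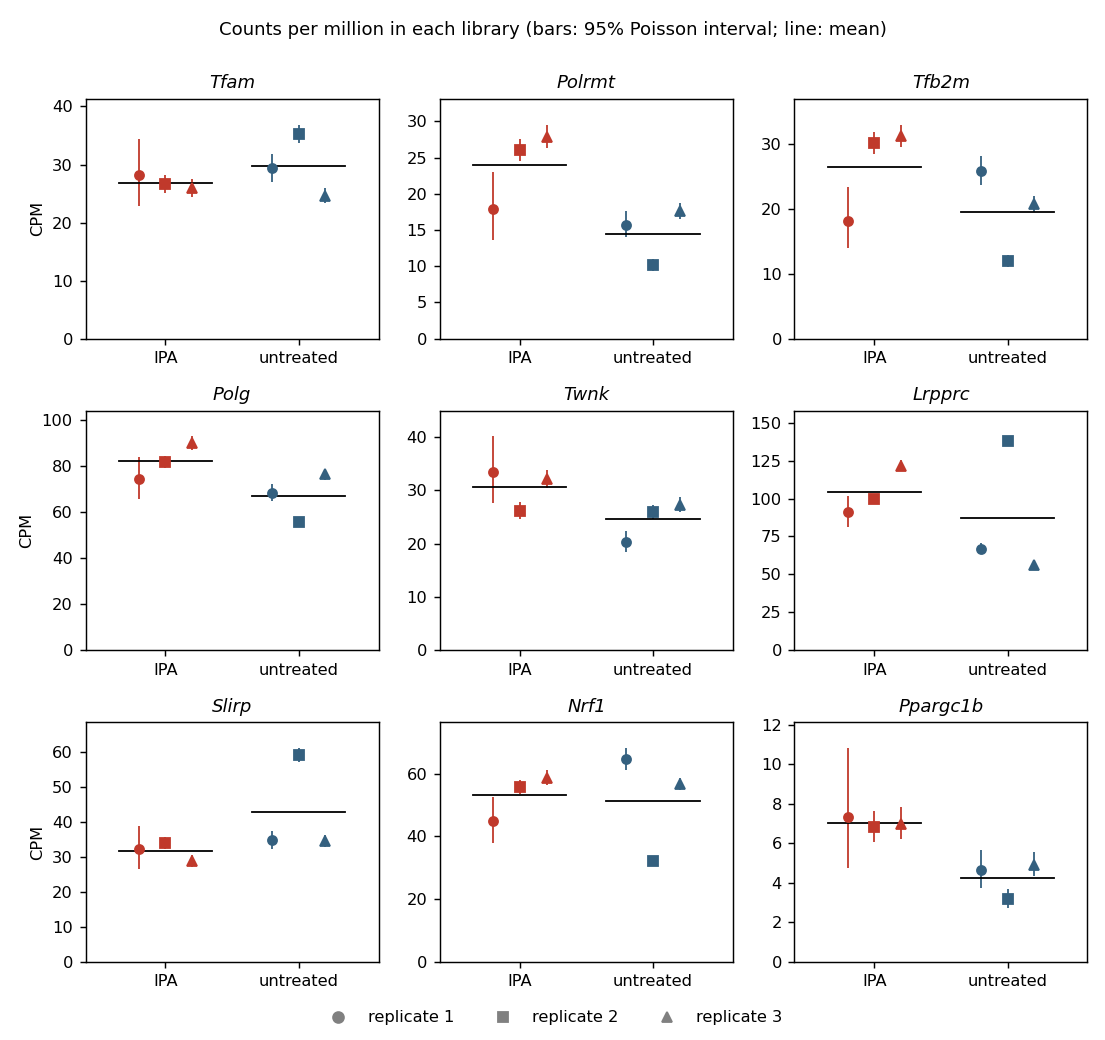
CPM (count scaled to the library total) of each of the 9 genes in the IPA and untreated libraries, with 1 point per library, its 95% exact Poisson interval and the group mean as a line. Lrpprc in untreated replicate 2, at 138 CPM, lies above every IPA library, while in untreated replicates 1 and 3 it lies below them. Polrmt and Ppargc1b are higher with IPA without overlap in all 6 libraries, against 15.7% of all tested IDs. Slirp is lower without overlap, against 6.38%.

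Of the mRNA-stability pair, Lrpprc was the gene called without untreated replicate 2, while Slirp did not pass in either comparison. Lrpprc, whose product binds and stabilizes mitochondrial mRNAs, had 91.2, 99.6 and 121.8 CPM in IPA replicates 1, 2 and 3, against 67.0, 138 and 56.0 CPM in untreated replicates 1, 2 and 3. All 3 IPA libraries stood above untreated replicates 1 and 3, and untreated replicate 2 stood above all of them. The group means were 104 ± 15.8 CPM with IPA and 87.0 ± 44.5 CPM untreated (SD, n = 3 each). Over all 6 libraries the log2 fold change was -0.07 ± 0.47 (SE; edgeR adjusted p = 0.964), with a 95% interval from -1.18 to 1.04. Without untreated replicate 2, Lrpprc rose by 0.67 ± 0.15 on the log2 scale, a 1.59-fold change (edgeR adjusted p = 0.0203), with an interval from 0.35 to 0.98. That comparison sets 3 IPA libraries against 2 untreated ones, and the call was also made with IPA replicate 1 left out too, at 0.79 ± 0.16 (edgeR adjusted p = 0.00805), where 2.88% of all IDs were called higher and 3.05% lower. The call depended on the weight given to untreated replicate 2, whose level of Lrpprc was 2.24 times the mean of the other untreated libraries. Limma-voom with sample quality weights, which keeps all 6 libraries but gave this one a weight of 0.0388 against 1.27 to 4.37 for the others, also called Lrpprc, at a log2 fold change of 0.67 (adjusted p = 0.0293), where 1.97% of all IDs were called higher and 3.03% lower.

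Slirp, whose small RNA-binding product is the partner of LRPPRC, had the most negative fold change over all 6 libraries. Its levels were 32.3, 33.9 and 28.7 CPM in IPA replicates 1, 2 and 3, against 34.8, 59.0 and 34.4 CPM in untreated replicates 1, 2 and 3. The groups did not overlap, but the gap was small: the counting interval of IPA replicate 2, 32.2 to 35.7 CPM, overlapped that of untreated replicate 3, 32.9 to 36.1 CPM. The log2 fold change was -0.74 ± 0.37 (SE; edgeR adjusted p = 0.657) over all 6 libraries and -0.24 ± 0.16 without untreated replicate 2 (edgeR adjusted p = 0.504), whose own level was 1.71 times the mean of untreated replicates 1 and 3.

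The ratio of Lrpprc to Slirp counts needs no normalization between libraries. It was 2.83, 2.94 and 4.24 in IPA replicates 1, 2 and 3, against 1.93, 2.34 and 1.63 in untreated replicates 1, 2 and 3. The groups did not overlap. Untreated replicate 2, in which both genes were high, had the highest untreated ratio, between those of untreated replicate 1 and IPA replicate 1. The ratio in IPA replicate 1 rested on 311 counts of Lrpprc and 110 of Slirp. The geometric mean ratio was 1.69-fold higher with IPA, and 1.85-fold higher without untreated replicate 2. An exact permutation test over the 6 libraries, two-sided on log2 ratios, gave p = 0.1, the smallest that 3 against 3 can give, and 0.4 after Benjamini-Hochberg adjustment over the 4 gene pairs compared. These pairs, proteins that act together, were chosen after the counts had been seen. Without untreated replicate 2 the exact permutation test of Lrpprc to Slirp again gave p = 0.1, or 0.4 adjusted. That is also the smallest p that 3 against 2 can give. A test of 3 libraries against 3, or of 3 against 2, cannot pass the threshold here, so this ratio is a description of these libraries.

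**Figure D2:**
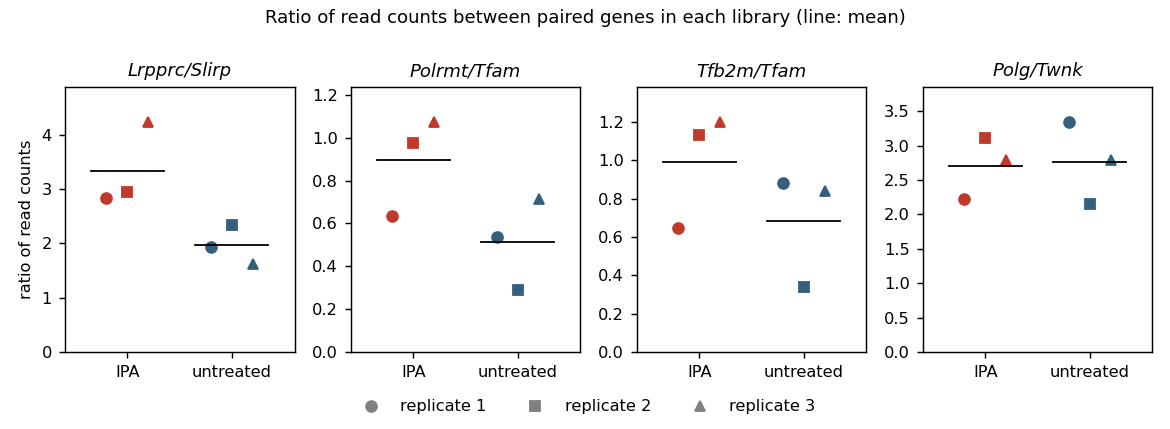
Ratio of read counts between genes whose proteins act together, with 1 point per library and group means as lines, for IPA and untreated libraries. Lrpprc/Slirp is 2.83 or more in each IPA library and 2.34 or less in each untreated library, while the other ratios overlap between groups; ratios are not corrected for gene length and their height cannot be compared between panels.

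Among the transcription genes, the polymerase gene Polrmt had the largest positive change over all 6 libraries and its partner Tfam a negative one, neither past the test. Polrmt stood at 17.9, 26.0 and 27.9 CPM in IPA replicates 1, 2 and 3, against 15.7, 10.2 and 17.6 CPM in untreated replicates 1, 2 and 3. All IPA values were above all untreated ones, with IPA replicate 1 close to untreated replicate 3: its 61 counts give an interval of 13.7 to 23.0 CPM. After TMM scaling, which raises untreated replicate 2 and lowers the IPA libraries, the groups overlapped. The log2 fold change of Polrmt was 0.53 ± 0.27 (SE; edgeR adjusted p = 0.657), with an interval from -0.11 to 1.18, and 0.45 ± 0.20 without untreated replicate 2 (edgeR adjusted p = 0.249). With IPA replicate 1 left out as well, it was 0.63 ± 0.17 (edgeR adjusted p = 0.0409), in a comparison of 2 IPA with 2 untreated libraries. There 2.88% of all tested IDs were called higher and 3.05% lower. Without IPA replicate 1 alone the edgeR adjusted p of Polrmt was 0.841.

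Tfam had 28.1, 26.6 and 25.9 CPM in IPA replicates 1, 2 and 3, against 29.3, 35.3 and 24.6 CPM in untreated replicates 1, 2 and 3. The IPA libraries lay inside the untreated range. The log2 fold change was -0.42 ± 0.29 over all 6 libraries (SE; edgeR adjusted p = 0.668) and -0.12 ± 0.17 without untreated replicate 2 (edgeR adjusted p = 0.827), where the 95% interval was -0.47 to 0.24. Tfb2m had 18.2, 30.1 and 31.1 CPM in IPA replicates 1, 2 and 3, against 25.8, 11.9 and 20.7 CPM in untreated replicates 1, 2 and 3. IPA replicates 2 and 3 were above every untreated library and IPA replicate 1 was below 2 of them. Its log2 fold change was 0.27 ± 0.32 over all 6 libraries (SE; edgeR adjusted p = 0.781) and 0.13 ± 0.21 without untreated replicate 2 (edgeR adjusted p = 0.839).

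For Polrmt, Tfb2m and Nrf1 the counting interval of IPA replicate 1 did not overlap those of IPA replicates 2 and 3. The gap for Nrf1 was narrow: the interval of IPA replicate 1 ended at 52.6 CPM and that of IPA replicate 2 began at 53.6 CPM. For the other 6 genes the interval of IPA replicate 1 overlapped at least 1 of them. How common such gaps are among all IDs was not examined, and whether counting error accounts for them was not tested. The ratio of Polrmt to Tfam counts was 0.635, 0.978 and 1.08 in IPA replicates 1, 2 and 3, against 0.537, 0.288 and 0.714 in untreated replicates 1, 2 and 3, with IPA replicate 1 below untreated replicate 3. In the exact permutation test this ratio gave p = 0.2, or 0.4 adjusted over the 4 pairs. Its geometric mean was 1.82-fold higher with IPA, and 1.41-fold without untreated replicate 2 (exact permutation p = 0.3, or 0.6 adjusted). The ratio of Tfb2m to Tfam, 0.993 ± 0.303 with IPA and 0.686 ± 0.303 untreated (SD, n = 3 each), gave an exact permutation p of 0.4, or 0.533 adjusted over the 4 pairs. Its geometric mean ratio between the groups was 1.52, and 1.11 without untreated replicate 2 (exact permutation p = 0.8, and 0.8 adjusted).

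Neither replication gene differed with IPA beyond the spread between libraries. Polg had 74.2, 81.6 and 89.7 CPM in IPA replicates 1, 2 and 3, against 68.3, 55.6 and 76.2 CPM in untreated replicates 1, 2 and 3. The groups overlapped, since IPA replicate 1 was below untreated replicate 3. Its log2 fold change was 0.08 ± 0.19 (SE; edgeR adjusted p = 0.893) over all 6 libraries and 0.08 ± 0.14 without untreated replicate 2 (edgeR adjusted p = 0.852), with intervals of -0.37 to 0.52 and -0.21 to 0.37. Twnk had 33.4, 26.2 and 32.1 CPM in IPA replicates 1, 2 and 3, against 20.4, 25.9 and 27.4 CPM in untreated replicates 1, 2 and 3. IPA replicate 2 lay below untreated replicate 3, and the other IPA libraries lay above all untreated ones. The log2 fold change of Twnk was 0.06 ± 0.27 (SE; edgeR adjusted p = 0.945), and 0.24 ± 0.18 without untreated replicate 2 (edgeR adjusted p = 0.598). The ratio of Polg to Twnk counts was 2.71 ± 0.452 with IPA and 2.76 ± 0.603 untreated (SD, n = 3 each; exact permutation p = 1, and 1 after adjustment). The geometric mean of this ratio with IPA was 0.987 times the untreated one, and 0.877 times without untreated replicate 2 (exact permutation p = 0.5, or 0.667 adjusted).

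Of the nuclear regulators, Ppargc1b separated the groups in all 6 libraries. This gene encodes PGC-1β, a coactivator that works with nuclear receptors and other factors, NRF1 among them. It had 7.33, 6.81 and 6.99 CPM in IPA replicates 1, 2 and 3, against 4.64, 3.17 and 4.92 CPM in untreated replicates 1, 2 and 3. The means were 7.05 ± 0.263 CPM with IPA and 4.24 ± 0.937 CPM untreated (SD, n = 3 each), and the groups did not overlap after TMM scaling either. IPA replicate 1 rested on 25 counts, with an interval of 4.74 to 10.8 CPM. That interval overlapped those of untreated replicate 1, 3.75 to 5.68 CPM, and untreated replicate 3, 4.34 to 5.55 CPM. The log2 fold change was 0.52 ± 0.32 (SE; edgeR adjusted p = 0.658) with an interval from -0.24 to 1.28, and 0.44 ± 0.26 without untreated replicate 2 (edgeR adjusted p = 0.429). The separation thus did not pass the test under either choice of libraries.

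Nrf1, a transcription factor gene, had 44.9, 55.8 and 58.8 CPM in IPA replicates 1, 2 and 3, against 64.7, 32.2 and 56.8 CPM in untreated replicates 1, 2 and 3. The IPA libraries lay inside the untreated range. Its log2 fold change was -0.13 ± 0.24 (SE; edgeR adjusted p = 0.855) and -0.28 ± 0.15 without untreated replicate 2 (edgeR adjusted p = 0.365), where the interval was -0.59 to 0.03. The estimates for Nrf1 and Ppargc1b were thus of opposite sign in both comparisons, and neither passed.

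Over all 6 libraries, CPM did not overlap between the groups for 2 of 9 genes higher with IPA, Polrmt and Ppargc1b, against 15.7% of all tested IDs, and for 1 lower, Slirp, against 6.38%. After TMM scaling these were 1 higher, Ppargc1b, against 9.49%, and 1 lower, Slirp, against 10.8%. Without untreated replicate 2 and with TMM scaling, Lrpprc and Ppargc1b were higher without overlap, against 13.3% of IDs, and Slirp and Nrf1 were lower, against 19.4%. In CPM without that library, Polrmt, Lrpprc and Ppargc1b, 3 of 9, were higher without overlap, against 19.8% of IDs, and Slirp was lower, against 13.9%. Among 9 genes these counts carry little weight, and nothing is read from them.

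**Figure D3:**
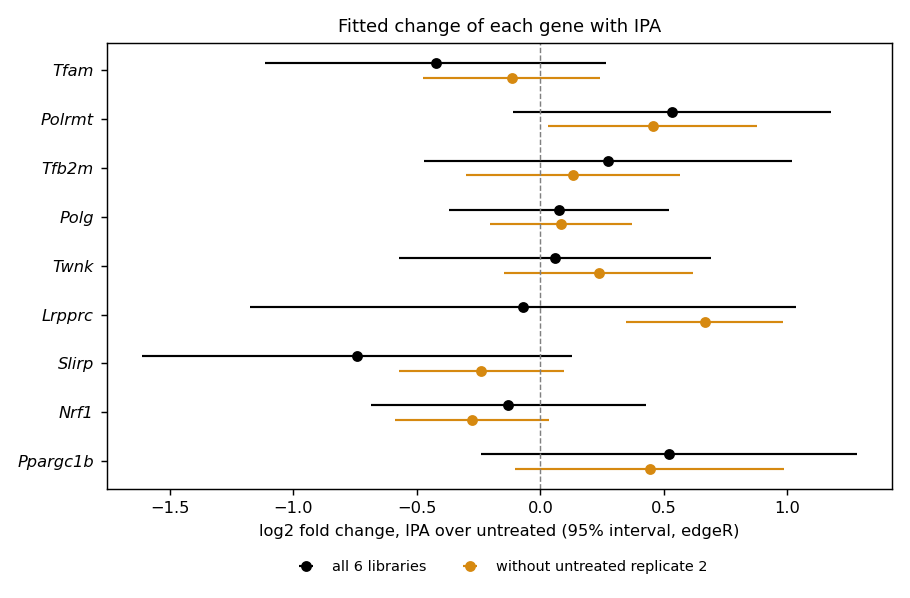
Fitted log2 fold change, IPA over untreated, of each gene with its 95% interval from edgeR, over all 6 libraries and without untreated replicate 2. All intervals from 6 libraries include 0; without untreated replicate 2 those of Lrpprc, 0.35 to 0.98, and Polrmt, 0.03 to 0.87, do not, and of these only Lrpprc passed after adjustment.

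The genes did not share a common pattern over the libraries. Across the 36 pairs the Pearson r of log2 CPM over 6 libraries had a mean of 0.06 and ran from -0.75 for Twnk and Nrf1 to 0.97 for Tfam and Slirp, with 18 pairs above 0. These are descriptions over libraries of 2 groups that share a scaling, and untreated replicate 2 weighs heavily in them. Tfam and Slirp were most like each other, but both were highest in untreated replicate 2. Their r was 0.44 over the other 5 libraries, and Spearman's rho over 6 was 0.6. The r of Lrpprc and Slirp was 0.66 over 6 libraries and -0.87 over the other 5, with a rho of -0.03 over 6. Polrmt and Tfb2m were also most like each other, at an r of 0.82 and a rho of 0.829 over 6 libraries. The gene most like Polg was Polrmt and the one most like Nrf1 was Tfb2m, both with and without untreated replicate 2. Other partners changed with that library: Lrpprc was most like Tfam over 6 libraries, at 0.73, but the r of this pair was -0.26 over the other 5, where Lrpprc was most like Ppargc1b, at 0.86. Twnk was most like Lrpprc over 6 libraries and most like Ppargc1b over 5, and Ppargc1b most like Polrmt over 6 and most like Lrpprc over 5. Polrmt was most like Polg over 5, at 0.89.

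In untreated replicate 2 the genes moved apart from one another relative to untreated replicates 1 and 3. On the TMM-scaled log2 scale Lrpprc differed by 1.61, Slirp by 1.21, Tfam by 0.83 and Twnk by 0.57, while Tfb2m differed by -0.52, Nrf1 by -0.47, Polrmt by -0.27, Ppargc1b by -0.15 and Polg by 0.06. The median absolute difference over all tested IDs was 1.13, which Lrpprc and Slirp exceeded. By absolute difference Lrpprc stood at percentile 63.2 of all tested IDs and Slirp at 52.5. The other genes stood below the median, from percentile 3.14 for Polg to 39.2 for Tfam. Shifts of this size in untreated replicate 2 were thus not particular to these genes. Without this library the estimate of Lrpprc changed sign, and those of Tfam and Slirp moved toward 0.

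**Figure D4:**
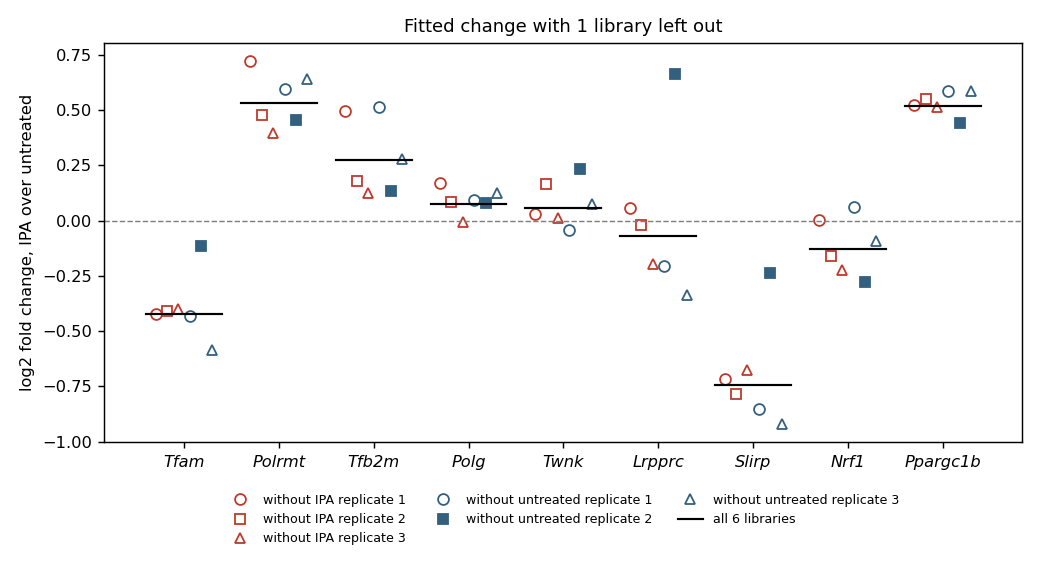
Fitted log2 fold change, IPA over untreated, of each gene with 1 library left out in turn (points) and over all 6 libraries (lines). Leaving out untreated replicate 2 moves Lrpprc to 0.67 and Slirp from -0.74 to -0.24, whereas Ppargc1b stays between 0.44 and 0.59. Slirp and Tfam stay below 0 throughout, and Polrmt, Tfb2m and Ppargc1b stay above 0.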

How the data were processed

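RNA of 6 samples was sequenced. The authors deposited unnormalized read counts, 1 row per Ensembl gene ID. GRCm38 and mm10 are named in the submitters' processing notes; aligner, counter and annotation release: not given in the sources used here. Groups and replicate numbers come from sample titles; the treated columns carry a shorter abbreviation than the titles. The 9 genes and all lists were chosen with earlier results of these data known. All 9 are named by rule; their symbols came with the list of IDs. Counts were tested with edgeR 4.0.16 (robust quasi-likelihood F-test, TMM, filterByExpr) in R 4.3.3, adjusted by Benjamini-Hochberg over all 24935 IDs tested, and called at an adjusted p under 0.05. The standard error is the log2 fold change divided by the square root of F. CPM uses library totals without TMM factors unless stated, and 3 counts correspond to 0.0509 to 0.88 CPM. Poisson intervals (95%, exact) and these floors cover counting error only. Correlations between libraries or genes were taken on log2 CPM, TMM-scaled, with 2 as prior count. The edgeR procedure was tested on simulated data. Alternatives were DESeq2 1.42.0, limma 3.58.1 (voom), other scalings, filters, the replicate block and left-out libraries. RefSeq's table of 49997 genes gives 0 Ensembl IDs, so the 6 wider pathway lists, the cell type markers and promoter motifs were not analysed here.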

Additional observations from a re-analysis of the deposited data

How the results depend on the processing

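Of 22 alternatives, Tfam, Tfb2m, Slirp and Ppargc1b kept their direction and did not pass in any. Genes called higher and lower were 0 and 0 with limma-voom, RLE or upper-quartile factors, the filter at 1 CPM and the replicate block, 22 and 63 with DESeq2, and 1 and 0 with library totals or no filter; the 9 genes had 0 calls in all of these. Leaving out 1 library gave 0 to 322 higher and 0 to 564 lower, and 0 to 1 of the 9, each value above 0 coming from leaving out untreated replicate 2. Without that library, 691 and 327 were called with library totals, 634 and 660 with DESeq2, 660 and 1009 with limma-voom, 364 and 481 with RLE factors, and 309 and 581 with upper-quartile factors, and 1 of the 9, Lrpprc, was higher in each. Of the IDs tested in these settings, 1.21% (upper-quartile factors) to 3.71% (DESeq2) were called higher. Those called lower made up 1.28% (library totals) to 3.94% (limma-voom). Limma-voom with sample quality weights on all 6 libraries called 492 (1.97%) and 755 (3.03%), with 1 of the 9, Lrpprc, higher. Without untreated replicate 2 and IPA replicate 1 there were 719 (2.88%) and 763 (3.05%), or 888 (3.55%) and 511 (2.05%) with library totals. In each, 2 of the 9 were higher, Lrpprc and Polrmt. Library totals without both libraries, the quality weights, and RLE and upper-quartile factors without untreated replicate 2 were chosen after seeing the data. Giving results without untreated replicate 2 throughout also rested on these data, namely on its correlations with the other libraries.

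The log2 fold change of Lrpprc, -0.07 over 6 libraries, was positive in 14 of the alternatives. Over all 6 libraries it was 0.67 with quality weights, which passed, and, without passing, 0.16 with limma-voom, 0.26 with library totals, 0.0039 with no filter, and 0.14 with the replicate block. With 1 library left out it ran from -0.34 to 0.67 (0.06 without IPA replicate 1) and passed only without untreated replicate 2. Without untreated replicate 2 it was 0.77 with library totals, 0.69 with DESeq2, 0.72 with limma-voom, 0.69 with RLE and 0.65 with upper-quartile factors; 0.79 without IPA replicate 1 too, or 0.85 with library totals; all of these passed. Nrf1 was 0.056 with library totals, and ran from -0.28 to 0.062 with 1 library left out (0.0014 without IPA replicate 1); Polg ran from -0.0082 to 0.17 (0.18 without untreated replicate 2 and IPA replicate 1) and Twnk from -0.044 to 0.24. Beyond the libraries left out, the cause was not tested. Library totals moved the median of all IDs to 0.13, against -0.08 with TMM, and that of the 9 genes to 0.29, against 0.06. The mean r between the genes was 0.0621 over all 6 libraries, 0.0576 without untreated replicate 2 and 0.0222 by Spearman. Deviations from the group means, paired by replicate number, correlated at -0.0771, 0.0183 and 0.161. The untreated means include the outlying untreated replicate 2, so these values cannot decide whether the numbers pair the samples. The numbers were not taken to pair them. The replicate block called 0 genes in both directions, as did the fit of all 6 libraries without it. Depth limits Ppargc1b in IPA replicate 1 most.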
